A study of Mus musculus with 9 samples.

Results

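Interferon-stimulated genes are the genes that cells switch on when interferon reaches them, and 40 of them, named in a list, were read from a table of 23946 genes measured by RNA sequencing in mouse CD8 T cells. All 40 symbols were present in the table, and 39 of them passed the filter on low values, which asked for at least 1 FPKM (sequenced fragments relative to transcript length and to the library's mapped total) in at least 3 of the 9 libraries. The member that did not pass was Ifi44. The groups were wild type (WT), a group whose genotype is given as CTCF-/- (CTCF KO) and a group whose genotype is given as Tcf1-/-Lef1-/- (DKO), with 3 libraries in each. All donor mice, WT included, carried hCD2-Cre, a recombinase under human CD2 control that acts in lymphocytes, and Rosa26-lsl-GFP, a reporter that Cre turns on. CTCF KO donors also carried floxed Ctcf and DKO donors floxed Tcf1 and Lef1. Naive CD8 T cells were enriched from the donors by removing other lineages, CD4+ cells and CD44 high cells, then labelled with CTV, a dye that is diluted by division. They were transferred into Rag1-deficient recipients, which have no T or B cells of their own but keep NK and myeloid cells, and CTV+ GFP+ TCRbeta+ CD8+ cells were sorted from the spleen 72 h later. The recipients are therefore a setting of homeostatic proliferation, without infection, although the source names also carry the word "stim". The labels give no ages, and nothing in them shows that replicate libraries came from different animals.

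Type I interferons signal through the receptor chains IFNAR1 and IFNAR2, and interferon gamma through IFNGR1 and IFNGR2. Both receptors use Janus kinases to phosphorylate STAT proteins. Type I interferon acts through the complex ISGF3, which includes STAT2 and IRF9 and binds interferon-stimulated response elements (ISREs) in promoters, whereas interferon gamma acts mostly at gamma-activated sites (GAS). The products of the target genes sense viral nucleic acid, block steps of viral growth, or feed back on the pathway itself. Resting T cells also hold a low tonic level of many of these transcripts.

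Promoters are shown for 7 members because they hold the ISRE letters and because the set includes neighbouring genes that moved in opposite directions in the comparisons described after them. The sequences are RefSeq windows on GRCm38.p6, from 250 bases before to 50 bases after an annotated start, written 5′ to 3′ on the strand of the gene. Capitals mark every match to GAAANNGAAA or to its reverse complement TTTCNNTTTC. The Gbp2 window lies at chr3:142620413-142620712 (plus strand), that of Gbp3 at chr3:142559794-142560093 (plus strand), that of Oas3 at chr5:120777610-120777909 (minus strand), that of Oas1a at chr5:120907476-120907775 (minus strand), that of Ifit1 at chr19:34640639-34640938 (plus strand), that of Bst2 at chr8:71537423-71537722 (minus strand) and that of Isg15 at chr4:156200769-156201068 (minus strand).
Gbp2: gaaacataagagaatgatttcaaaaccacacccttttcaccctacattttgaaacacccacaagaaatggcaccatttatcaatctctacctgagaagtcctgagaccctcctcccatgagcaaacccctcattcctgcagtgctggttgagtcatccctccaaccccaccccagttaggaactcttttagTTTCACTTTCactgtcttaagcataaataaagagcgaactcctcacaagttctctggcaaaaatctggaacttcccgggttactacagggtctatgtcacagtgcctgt
Gbp3: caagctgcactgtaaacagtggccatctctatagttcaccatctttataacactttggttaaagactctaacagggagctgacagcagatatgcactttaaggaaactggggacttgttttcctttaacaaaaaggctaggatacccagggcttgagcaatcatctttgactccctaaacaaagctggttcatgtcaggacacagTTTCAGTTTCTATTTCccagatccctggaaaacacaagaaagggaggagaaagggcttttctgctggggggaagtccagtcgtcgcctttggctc
Oas3: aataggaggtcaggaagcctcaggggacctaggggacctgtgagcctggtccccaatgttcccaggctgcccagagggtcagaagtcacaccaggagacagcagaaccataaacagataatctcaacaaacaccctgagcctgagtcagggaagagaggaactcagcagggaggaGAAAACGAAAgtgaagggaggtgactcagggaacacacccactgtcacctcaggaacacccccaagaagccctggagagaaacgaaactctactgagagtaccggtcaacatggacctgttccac
Oas1a: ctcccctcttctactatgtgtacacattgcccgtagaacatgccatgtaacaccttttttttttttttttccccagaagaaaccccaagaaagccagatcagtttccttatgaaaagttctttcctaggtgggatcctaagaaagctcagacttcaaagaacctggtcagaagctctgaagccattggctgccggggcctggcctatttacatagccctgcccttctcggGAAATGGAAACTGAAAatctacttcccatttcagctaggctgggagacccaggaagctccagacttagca
Ifit1: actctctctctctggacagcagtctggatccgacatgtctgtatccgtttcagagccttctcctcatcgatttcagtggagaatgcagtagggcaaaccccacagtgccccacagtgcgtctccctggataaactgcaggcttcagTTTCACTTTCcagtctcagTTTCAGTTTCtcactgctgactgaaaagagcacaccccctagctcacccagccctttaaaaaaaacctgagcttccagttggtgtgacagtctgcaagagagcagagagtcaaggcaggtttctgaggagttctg
Bst2: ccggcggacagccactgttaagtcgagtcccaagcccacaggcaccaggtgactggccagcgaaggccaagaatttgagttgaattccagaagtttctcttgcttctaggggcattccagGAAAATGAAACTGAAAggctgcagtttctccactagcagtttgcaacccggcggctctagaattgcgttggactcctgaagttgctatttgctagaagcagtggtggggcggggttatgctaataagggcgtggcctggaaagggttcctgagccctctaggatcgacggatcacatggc
Isg15: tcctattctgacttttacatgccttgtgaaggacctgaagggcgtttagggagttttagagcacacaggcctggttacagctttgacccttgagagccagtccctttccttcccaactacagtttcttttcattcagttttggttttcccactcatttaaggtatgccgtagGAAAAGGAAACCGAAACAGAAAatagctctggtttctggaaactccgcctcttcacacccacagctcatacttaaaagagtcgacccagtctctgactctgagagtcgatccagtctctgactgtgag

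In these windows the first base of a match lay 59 bases before the start in Gbp2, 45 and 39 in Gbp3, 75 in Oas3, 20 and 14 in Oas1a, 104 and 85 in Ifit1, 130 and 124 in Bst2, and 78, 72 and 66 in Isg15, so that several matches share letters. The RefSeq table matched 30 of the 40 members, with 36 windows of 300 bases; Iigp1, Ifi27l2a, Zbp1, Parp9, Oas2, Dhx58, Usp18, Mx1, Rtp4 and Parp14 had no entry. ISRE letters were present for 15 of the 30 members (50%). They were present for 311 of 7760 tested genes that had a window (4.01%) and for 1079 of all 27025 genes with a window (3.99%). The GAS letters TTCNNNGAA, which read the same on both strands, were present for 9 of the 30 members (30%) and for 650 of the 7760 tested genes (8.38%). ISRE and GAS matches overlapped each other in 1 member window. A match describes letters only. Of the 29 members with both a window and a test, ISRE letters were held by 8 of the 13 that were higher in DKO than in WT, by 2 of the 4 that were lower and by 5 of the 12 that were not called. Both directions of change, and no call, were thus found among promoters that hold the letters.

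**Figure D1:**
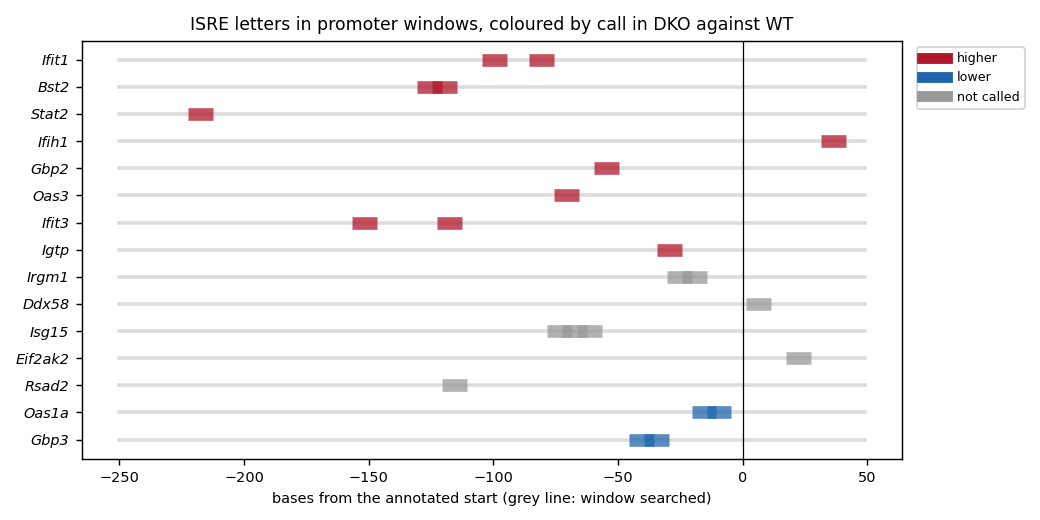
Position of ISRE letters (coloured blocks) in the promoter windows of the 15 members that hold them, in bases from the annotated start (x axis), with 1 line per gene. Colour gives the call in DKO against WT, and genes called higher, called lower and not called all appear among them.

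The libraries were similar in overall yield, and the RNA of the targeted genes did not always follow the labels. Summed FPKM lay between 629663 and 702470 per library and 9613 to 9832 genes reached 1 FPKM. Ratios between low values put the relative depth of the libraries between 0.717 and 1.32 of the third WT library, and the absolute depth is unknown. Over the members, Pearson correlations of log2 values ran from 0.992 to 0.997 for libraries of 1 group and from 0.961 to 0.984 for libraries of different groups. Ctcf RNA was 23.9 ± 7.70 FPKM in WT and 18.3 ± 1.64 in CTCF KO (mean ± SD over 3 libraries; log2 fold change -0.33, limma adjusted p = 0.319). Lef1 fell from 346 ± 12.4 to 90.7 ± 4.41 FPKM in DKO (limma adjusted p = 1.4e-08), but Tcf7, which encodes TCF1, was higher there at 342 ± 11.3 against 257 ± 6.43 (limma adjusted p = 0.000223). Every direction in the text is therefore that of the libraries labelled CTCF KO or DKO. Values per gene cannot show whether the floxed exons were lost, so they do not test the knockouts. Ddx3y, a Y-linked gene, was at 35.6 ± 2.29 FPKM in CTCF KO against 0.277 ± 0.204 in WT and 0.220 ± 0.149 in DKO, so that sex and genotype cannot be told apart in comparisons with the libraries labelled CTCF KO. Summed CD8 T cell markers lay between 7168 and 8220 FPKM in all libraries, so the defining transcripts of the labelled cell type were present. Single markers differed, and 6 of the 8 were called in DKO against WT (75%, against 40.4% of tested genes). Cd3e, Cd3g and Cd8b1 were higher there and Cd8a (447 ± 31.2 to 285 ± 7.0 FPKM), Cd3d and Cd5 were lower. In CTCF KO 1 of the 8, Cd5, was higher (12.5%, against 5.78%).

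Interferon-stimulated transcripts were present in all groups, WT included. The summed FPKM of the 40 members was 2601 to 2914 in WT, 2104 to 2213 in CTCF KO and 2975 to 3138 in DKO, and the 3 groups did not overlap. Much of this sum is 1 gene: Ifi27l2a, which encodes a small hydrophobic membrane protein, had 888 ± 46.8 FPKM in WT. Without Ifi27l2a the sums were 1765 to 1989 in WT, 1709 to 1801 in CTCF KO and 2275 to 2407 in DKO, so the WT and CTCF KO ranges overlapped and the DKO range stayed above both. In WT, Ifi27l2a was followed by Ifi47 (249 ± 19.8 FPKM), Irf1 (174 ± 21.8), Lgals3bp (147 ± 12.7) and Samhd1 (139 ± 9.94), and the ranges of neighbours from Irf1 to Samhd1 overlapped. The lowest were Ifi44 (0.377 ± 0.281 FPKM), Mx1 (2.81 ± 0.909), Ifih1 (2.98 ± 0.562) and Oas2 (3.02 ± 0.368), and the last 3 of these did not differ beyond their spread. In bulk RNA, fewer cells with a transcript and less of it in each cell cannot be told apart.

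**Figure D2:**
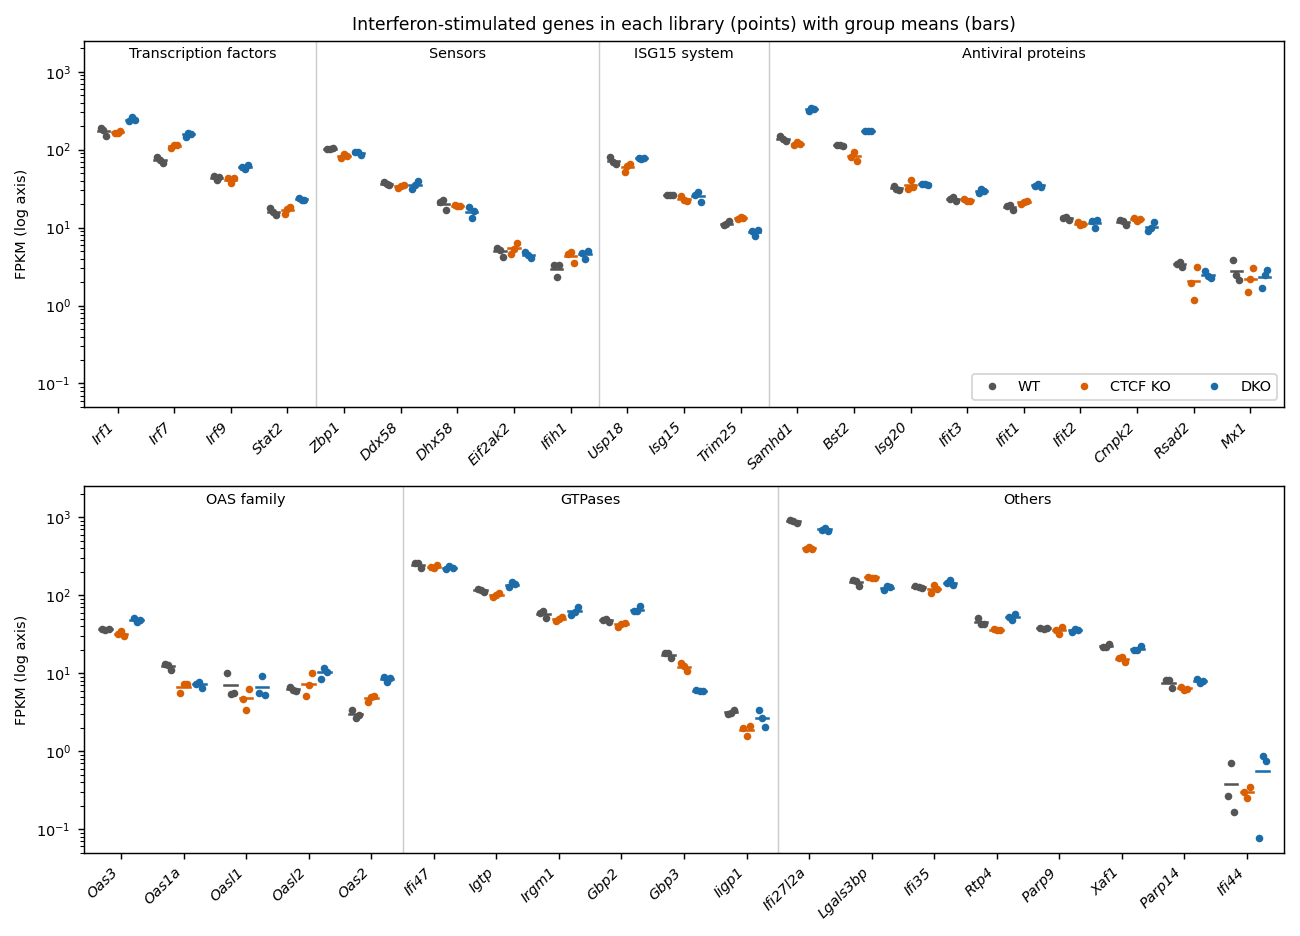
FPKM (log axis) of the 40 members in each of the 9 libraries (points) with group means (bars), grouped by role and ordered by the WT mean. The 4 transcription factors lie higher in DKO than in WT in every library, Ifi27l2a stands at the top at 888 FPKM in WT, and Ifi44 lies below 1 FPKM in every library.

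The comparison of CTCF KO with WT asks which of these transcripts differ where CTCF, a protein that anchors chromatin loops, was targeted. The largest fall was that of Ifi27l2a, and Oas1a, Xaf1, Gbp3, Bst2 and Zbp1 were also lower, while Irf7 and Oas2 were higher. In all, 2 of the 39 tested members were called higher (5.13%, against 5.78% of the 10172 tested genes) and 6 were called lower (15.4%, against 6.37%). In either direction 8 members were called (20.5%, against a background of 12.2%). The median log2 fold change of the tested members was -0.16, and that of all tested genes 0.01. Library ranges of the groups were apart, upward, for 6 of the 39 members, against 16.0% of all tested genes. Downward they were apart for 14 of the 39, against 14.4%. In all they were apart for 20 of the 39, against 30.4%. The authors' deposited table gave a q-value under 0.05 for 1 higher and 3 lower members, against 9.48% of tested genes in either direction. A call means an adjusted p under 0.05 in limma on log2(FPKM + 1), adjusted over all tested genes. Log2 fold changes refer to FPKM + 1 and so understate the change of low genes. The 2 higher calls became 1, Oas2 being lost, when library 2 or 3 of either group was left out (adjusted p for Oas2 of 0.0644 to 0.0863). The Gbp3 call was lost when WT library 1 or 2, or CTCF KO library 2 or 3, was left out (adjusted p 0.0659 to 0.0930) and that of Zbp1 without WT library 2 (adjusted p = 0.0503).

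The comparison of DKO with WT asks the same for TCF1 and LEF1, transcription factors of the naive and memory T cell state. Here the 4 transcription factors of the list, 4 antiviral effectors, 3 oligoadenylate synthetase genes, 2 GTPases and the sensor Ifih1 were higher, by log2 fold changes up to 1.25. Oas1a, Gbp3, Trim25, Ifi27l2a and Lgals3bp were lower, down to -1.40. Of the 39 tested members 14 were called higher (35.9%, against 18.5% of tested genes) and 5 lower (12.8%, against 21.9%). In either direction 19 were called (48.7%, against a background of 40.4%). The median log2 fold change was 0.06 over the members and 0.01 over all tested genes, with 20 members above 0 and 19 below. The ranges of DKO and WT were apart, upward, for 16 of the 39 members, against 26.8% of all tested genes. Downward they were apart for 7 of the 39, against 27.3%. In all they were apart for 23 of the 39, against 54.1%. The authors' deposited table had 11 members higher and 2 lower at a q-value under 0.05, against 28.9% of tested genes in either direction. The 5 lower calls became 3 without DKO library 2 or WT library 2. Single libraries decided 5 of the 19 calls: that of Ifih1 was lost without DKO library 1 or 3 or WT library 2 (adjusted p 0.0956 to 0.126), Igtp without DKO or WT library 2 or 3 (0.0653 to 0.0864), Trim25 without DKO library 2 or WT library 2 or 3 (0.0539 to 0.0710), Oasl2 without any 1 of CTCF KO library 2, DKO library 2 or 3 and WT library 1, 2 or 3 (0.0512 to 0.108), and Lgals3bp without any 1 library other than WT library 3 (0.0531 to 0.140).

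**Figure D3:**
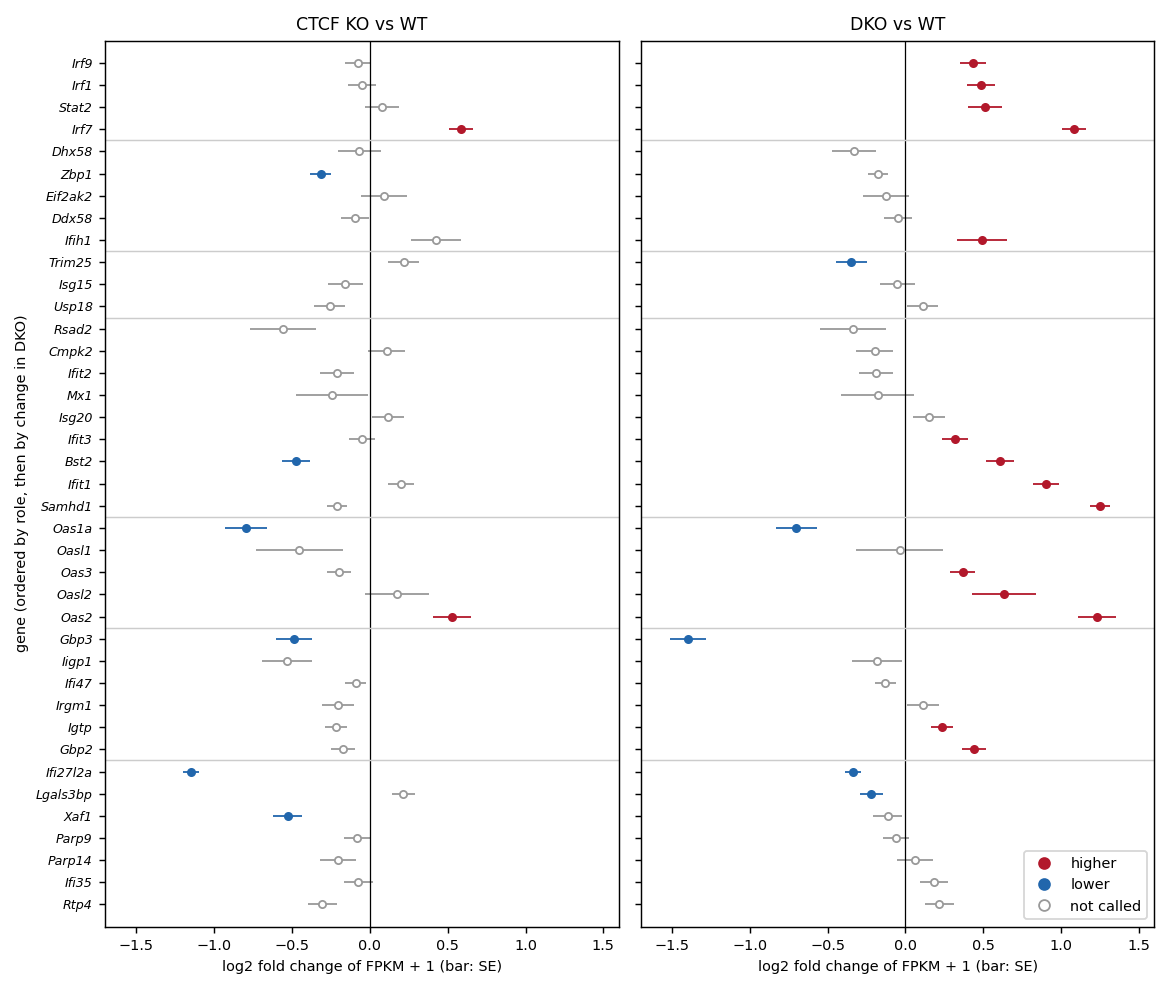
Log2 fold change of FPKM + 1 with its standard error (x axis) for the 39 tested members (y axis), ordered by role and then by the change in DKO, in CTCF KO against WT (left) and DKO against WT (right). Filled points passed the test (red higher, blue lower): 2 red and 6 blue on the left, 14 red and 5 blue on the right.

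All 4 transcription factors of the list were higher in DKO than in WT, and 1 of the 4 was higher in CTCF KO. Of all tested genes, 18.5% were called higher in DKO and 5.78% in CTCF KO. Irf7, which encodes the factor that amplifies type I interferon production, measured 79.5, 74.2 and 67.4 FPKM in WT, 104, 114 and 114 in CTCF KO and 148, 165 and 159 in DKO. The 3 groups did not overlap, with WT lowest and DKO highest. Its log2 fold change was 0.58 (SE 0.08, limma adjusted p = 0.00138) in CTCF KO and 1.09 (SE 0.08, limma adjusted p = 5.7e-06) in DKO. Irf1, which encodes a factor of the interferon gamma response, measured 192, 180.4 and 150.1 FPKM in WT, 163, 166 and 173 in CTCF KO and 232, 259 and 239 in DKO. CTCF KO lay within the WT range and DKO above both. The change of Irf1 in DKO was 0.49 (SE 0.09, limma adjusted p = 0.00231). Irf9, which encodes the DNA-binding subunit of ISGF3, measured 45.9, 40.3 and 44.7 FPKM in WT, 43.3, 37.6 and 43.1 in CTCF KO and 59.1, 56.3 and 62.7 in DKO. Again WT and CTCF KO overlapped and the DKO libraries lay above both, with a change of 0.44 (SE 0.08, limma adjusted p = 0.00290). Stat2, the partner of IRF9 in ISGF3, rose in DKO from 16.0 ± 1.68 to 23.2 ± 0.925 FPKM, by 0.51 (limma adjusted p = 0.00514), and was 17.0 ± 1.89 in CTCF KO.

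Of 5 genes for sensors of nucleic acid, 1 was lower in CTCF KO (20%, against 6.37% of tested genes). In DKO 1 was higher (20%, against 18.5% higher and 40.4% called in either direction). Zbp1, which encodes a sensor of Z-form nucleic acid that can start necroptosis, measured 101, 103 and 105 FPKM in WT, 77.2, 88.1 and 82.4 in CTCF KO and 93.5, 93.5 and 86.4 in DKO. Both other groups lay below WT. The fall was -0.32 (SE 0.06, limma adjusted p = 0.0125) in CTCF KO, and the value in DKO, -0.18, did not pass (limma adjusted p = 0.0556). Ifih1, which encodes the RNA sensor MDA5, rose from 2.98 ± 0.562 to 4.57 ± 0.579 FPKM in DKO (limma adjusted p = 0.0366). The other cytosolic RNA sensor, RIG-I, is encoded by Ddx58, which had 36.5 ± 1.35 FPKM in WT, 34.1 ± 1.51 in CTCF KO and 35.4 ± 4.11 in DKO and was not called. Dhx58 and Eif2ak2, which encode the sensor LGP2 and the RNA-activated kinase PKR, were not called either. In the ISG15 system, 1 of 3 genes was lower in DKO (33.3%, against 21.9% of tested genes). None of the 3 was called in CTCF KO by limma, against a background of 12.2%. Isg15, which encodes a ubiquitin-like modifier, measured 26.4, 26.4 and 26.3 FPKM in WT, 25.8, 22.9 and 22.0 in CTCF KO and 26.5, 29.1 and 21.3 in DKO. It passed no test, with limma adjusted p of 0.447 in CTCF KO and 0.749 in DKO. Its promoter window holds 3 ISRE matches that overlap in a single stretch. Trim25, which encodes a ubiquitin ligase that acts on RIG-I, measured 10.8, 11.0 and 12.0 FPKM in WT, 12.7, 13.7 and 13.3 in CTCF KO and 9.0, 7.74 and 9.27 in DKO. WT lay between the other groups without overlap, and the fall in DKO was -0.35 (SE 0.10, limma adjusted p = 0.0229). Usp18, which encodes the protease that removes ISG15 and restrains signalling at IFNAR2, had 72.1 ± 6.85, 60.3 ± 7.59 and 77.8 ± 1.84 FPKM in WT, CTCF KO and DKO and was not called against WT.

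Of 9 members that encode direct antiviral proteins, 4 were higher in DKO (44.4%, against 18.5% of tested genes) and none lower (against 21.9%). In CTCF KO 1 of the 9 members was lower (11.1%, against 6.37%). Their summed FPKM was 337 to 375 in WT, 296 to 328 in CTCF KO and 614 to 644 in DKO. Most of the difference was Samhd1 and Bst2, without which the sums were 97.4 to 109 in WT, 103 to 110.3 in CTCF KO and 124 to 128 in DKO. Samhd1, which encodes an enzyme that breaks down deoxynucleotides, measured 149, 137 and 129.6 FPKM in WT, 116, 124 and 118 in CTCF KO and 316, 342 and 337 in DKO. The DKO libraries stood far above all others, and CTCF KO lay below WT. The change was 1.25 (SE 0.06, limma adjusted p = 7.0e-07) in DKO and -0.21 in CTCF KO, which did not pass (limma adjusted p = 0.0630). Bst2, which encodes tetherin, a protein that holds budding virions at the cell surface, measured 116, 115 and 110.3 FPKM in WT, 81.4, 93.6 and 70.7 in CTCF KO and 175, 173 and 173 in DKO. It moved in opposite directions in the 2 knockout groups with no overlap, by -0.48 (SE 0.09, limma adjusted p = 0.00800) in CTCF KO and 0.61 (SE 0.09, limma adjusted p = 0.000652) in DKO. Ifit1, whose product binds foreign RNA ends, measured 18.7, 19.3 and 16.6 FPKM in WT, 20.2, 21.1 and 21.9 in CTCF KO and 34.6, 36.3 and 33.5 in DKO. The groups were ordered WT, CTCF KO and DKO without overlap, and only the rise in DKO of 0.90 passed (SE 0.08, limma adjusted p = 3.2e-05; 0.162 in CTCF KO). Its relative Ifit3 rose from 23.3 ± 1.51 to 29.4 ± 2.05 FPKM in DKO (0.32, limma adjusted p = 0.0143), and Ifit3 has a near-identical copy, so reads may have been split between them. Ifit2, Mx1, Rsad2, Cmpk2 and Isg20 were not called in any comparison. Among these, Rsad2, which encodes the antiviral enzyme viperin, was 3.38 ± 0.253 FPKM in WT, 2.07 ± 0.981 in CTCF KO and 2.48 ± 0.280 in DKO, and Mx1, which encodes a dynamin-like GTPase against influenza viruses in mice, was 2.81 ± 0.909, 2.22 ± 0.764 and 2.34 ± 0.593.

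Oligoadenylate synthetases make the small nucleotides that activate the ribonuclease RNase L, and the OASL proteins are their relatives. In DKO 3 of the 5 genes were higher (60%, against 18.5% of tested genes) and 1 was lower (20%, against 21.9%). In CTCF KO 1 was higher and 1 lower (20% each, against 5.78% and 6.37%). Oas2 measured 3.42, 2.71 and 2.91 FPKM in WT, 4.30, 4.89 and 5.18 in CTCF KO and 8.90, 7.78 and 8.59 in DKO. Its groups were ordered without overlap, WT lowest, with changes of 0.53 (SE 0.12, limma adjusted p = 0.0226) in CTCF KO and 1.23 (SE 0.12, limma adjusted p = 5.4e-05) in DKO. Oas3 measured 37.5, 36.4 and 37.5 FPKM in WT, 32.2, 34.6 and 29.9 in CTCF KO and 51.6, 44.9 and 48.2 in DKO. DKO lay above WT (0.37, SE 0.08, limma adjusted p = 0.00523) and CTCF KO below it, where the value of -0.20 did not pass (limma adjusted p = 0.149). Oas1a measured 13.3, 12.8 and 11.0 FPKM in WT, 5.58, 7.33 and 7.24 in CTCF KO and 7.28, 7.84 and 6.51 in DKO. Both knockout groups lay below WT and overlapped each other. The falls were -0.80 (SE 0.13, limma adjusted p = 0.00447) and -0.70 (SE 0.13, limma adjusted p = 0.00282). Oas1a belongs to a family of close copies, and the counting may have divided reads among them. Oasl2 rose in DKO from 6.22 ± 0.395 to 10.3 ± 1.61 FPKM (0.63, limma adjusted p = 0.0352), and Oasl1 was not called, with 6.99 ± 2.57 FPKM in WT and 6.74 ± 2.22 in DKO.

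The interferon-inducible GTPases attack the vacuoles of intracellular pathogens. Gbp2 and Igtp were higher in DKO and Gbp3 was lower, and Gbp3 was also lower in CTCF KO, out of 6 members. The shares in DKO were 33.3% and 16.7%, against 18.5% and 21.9% of tested genes. In CTCF KO the share was 16.7%, against 6.37%. Gbp2, a guanylate-binding protein gene, measured 48.3, 49.2 and 46.0 FPKM in WT, 39.6, 43.3 and 44.2 in CTCF KO and 62.2, 62.1 and 72.1 in DKO. DKO lay above both other groups, by 0.44 against WT (SE 0.08, limma adjusted p = 0.00208). Gbp3 measured 18.1, 18.3 and 15.6 FPKM in WT, 13.6, 12.2 and 10.6 in CTCF KO and 6.11, 5.89 and 5.86 in DKO. Here the order was reversed, WT highest and DKO lowest, with no overlap. The falls were -0.49 (SE 0.11, limma adjusted p = 0.0240) in CTCF KO and -1.40 (SE 0.11, limma adjusted p = 1.5e-05) in DKO. Igtp, an immunity-related GTPase gene, measured 122, 117 and 111 FPKM in WT, 94.6, 101 and 106 in CTCF KO and 128, 146 and 139 in DKO. Its rise in DKO was small, 0.23 (SE 0.07, limma adjusted p = 0.0259), with the groups ordered CTCF KO, WT and DKO. Irgm1 was not called against WT. Ifi47 and Iigp1 were called in no comparison, and Ifi47 shares its locus in the table with Tgtp2 and with 3 genes near 0 FPKM, so the division of reads there is uncertain.

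Neighbouring genes did not always move together. The table places Gbp3 at 142223015 to 142236176 and Gbp2 at 142283626 to 142300972 on chromosome 3, and in DKO the first fell and the second rose. On chromosome 5, Oas2 (121180341 to 121199857) and Oas3 (121203106 to 121227668) rose in DKO and Oas1a (121346265 to 121357534) fell. On chromosome 19, Ifit3 (34658018 to 34663472) and Ifit1 (34715378 to 34724499) rose in DKO, while Ifit2 (34625183 to 34651024) had 13.2 ± 0.683 FPKM in WT and 11.5 ± 1.49 in DKO (limma adjusted p = 0.200). These positions are the table's own. They are not on GRCm38, since 0 of the 40 members started within 1000 bases of their GRCm38 start. The submitters' processing notes also name mm9.

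**Figure D4:**
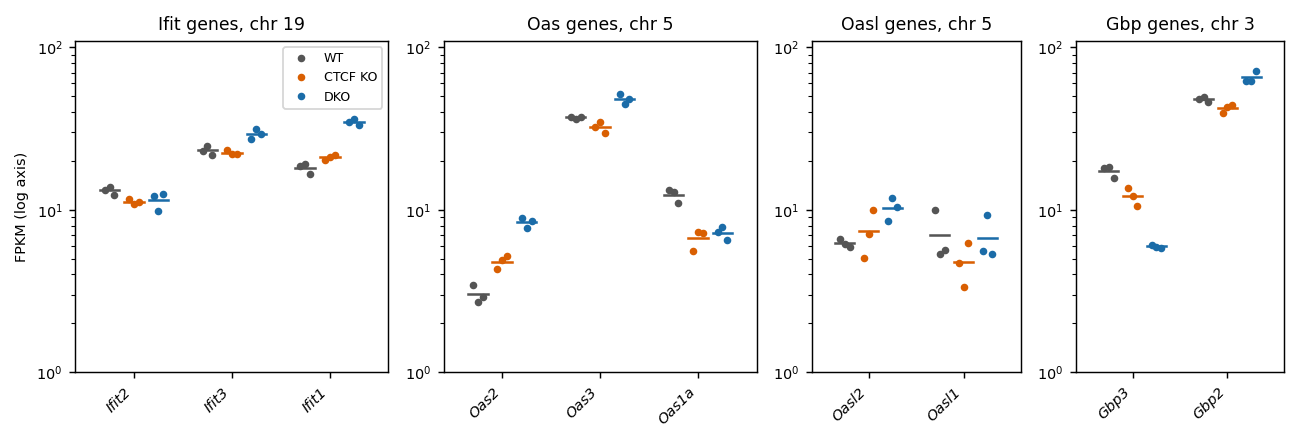
FPKM (log axis) in each library (points) with group means (bars) for 4 sets of neighbouring members, in their order on the chromosome. In DKO, Gbp3 falls to 5.95 and Gbp2 rises to 65.5, and Oas2 and Oas3 rise while Oas1a falls to 7.21.

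Of the 7 tested genes outside these roles, 2 were lower in CTCF KO (28.6%, against 6.37% of tested genes). In DKO 2 were lower (28.6%, against 21.9%). Ifi27l2a measured 926, 903 and 836 FPKM in WT, 394, 413 and 391 in CTCF KO and 699.6, 731 and 679 in DKO. All libraries of CTCF KO lay below those of DKO, and these below WT. The falls were -1.15 (SE 0.05, limma adjusted p = 2.1e-06) and -0.34 (SE 0.05, limma adjusted p = 0.00105). The table also lists the related Ifi27 at the same locus, with 245 ± 15.0, 239 ± 13.8 and 140.2 ± 7.65 FPKM in WT, CTCF KO and DKO, so the division of reads between them is uncertain. Xaf1, which encodes a pro-apoptotic partner of XIAP, measured 21.5, 21.9 and 23.9 FPKM in WT, 15.8, 16.2 and 13.9 in CTCF KO and 19.9, 19.8 and 22.3 in DKO. Only CTCF KO stood apart, at -0.53 (SE 0.09, limma adjusted p = 0.00613), while DKO overlapped WT (limma adjusted p = 0.353). Lgals3bp, which encodes a secreted galectin-binding glycoprotein, measured 157, 151 and 132 FPKM in WT, 174, 169 and 167 in CTCF KO and 116, 131 and 129.9 in DKO. The highest DKO library lay just under the lowest WT library, and the fall of -0.22 was the smallest among the 5 in DKO (SE 0.08, limma adjusted p = 0.0429). Rtp4, Ifi35, Parp9 and Parp14 were not called against WT, and Parp9 shares its locus with Dtx3l.

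Set directly against each other, the knockout groups differed mostly in one direction, with lower levels in CTCF KO. Of the 39 tested members 3 were higher in CTCF KO than in DKO (7.69%, against 21.8% of tested genes) and 17 were lower (43.6%, against 16.2%). In either direction 20 were called (51.3%, against a background of 38.0%), and the median log2 difference, CTCF KO minus DKO, was -0.32 over the members and 0.02 over all tested genes. Ranges were apart, upward, for 5 of the 39 members, against 28.3% of all tested genes. Downward they were apart for 18 of the 39, against 24.2%. In all they were apart for 23 of the 39, against 52.4%. The authors' deposited table had 3 members higher and 13 lower at a q-value under 0.05, against 28.1% of tested genes in either direction. The 3 that limma called higher were Gbp3 (0.91, limma adjusted p = 0.000295), Trim25 (0.56, limma adjusted p = 0.00230) and Lgals3bp (0.43, limma adjusted p = 0.00187). The largest differences among the 17 were those of Samhd1 (-1.47, limma adjusted p = 4.1e-07) and Bst2 (-1.08, limma adjusted p = 2.0e-05). All 4 transcription factors were among the 17, from -0.54 for Irf1 to -0.43 for Stat2, whose call was lost with libraries scaled to the same median (adjusted p = 0.0560). Usp18, Irgm1 and Rtp4 were called here and in neither comparison with WT, at -0.37, -0.32 and -0.52 (limma adjusted p = 0.0175, 0.0364 and 0.00202). The call of Usp18 was lost without DKO library 1 or 3 (adjusted p 0.0504 to 0.0533) and that of Irgm1 without any 1 of the CTCF KO libraries or DKO library 2 or 3 (0.0531 to 0.123). Ifi27l2a and Xaf1 were also lower in CTCF KO than in DKO (-0.81 and -0.41), and Oas1a did not differ by the test (-0.09, SE 0.13, limma adjusted p = 0.608).

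By the calls in the 3 comparisons, the most common pattern among called members was higher in DKO than in both other groups with no call in CTCF KO against WT. It held for 9 members: Irf1, Irf9, Stat2, Ifit1, Ifit3, Samhd1, Oas3, Gbp2 and Igtp. Irf7 and Oas2 were higher in both knockout groups and higher in DKO than in CTCF KO. Oas1a, Gbp3 and Ifi27l2a were lower in both knockout groups, and Bst2 was the member called in opposite directions. The Bst2 call in CTCF KO was lost with the replicate number as a block (limma adjusted p = 0.0853). The authors' deposited q-value for it in that comparison was 0.0806. No call was made in any comparison for 15 of the 39 tested members, among them Isg15, Ddx58, Mx1 and Rsad2. Both comparisons with WT use the same WT libraries, so agreement between them is not independent.

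The interferon transcripts themselves were few. Of 19 interferon genes in the table, Ifng was the one that passed the filter, and the highest mean of any other was 0.299 FPKM, for Ifnab in DKO. Ifng measured 10.5, 11.7 and 12.1 FPKM in WT, 2.57, 1.54 and 2.35 in CTCF KO and 1.99, 2.51 and 2.73 in DKO. Both knockout groups lay far below WT, by -1.99 (limma adjusted p = 8.7e-05) and -1.87 (limma adjusted p = 1.9e-05), and overlapped each other. Among 15 tested receptor and signalling genes, 2 were higher and 1 lower in CTCF KO (13.3% and 6.67%, against 5.78% and 6.37% of all tested genes). In DKO 3 were higher and 1 lower (20% and 6.67%, against 18.5% and 21.9%), and the share called in either direction, 26.7%, was below the background of 40.4%. Ifngr1, the ligand-binding chain of the interferon gamma receptor, was 225 ± 16.4 FPKM in WT, 132 ± 2.73 in CTCF KO (-0.76, limma adjusted p = 0.000124) and 199 ± 10.1 in DKO (limma adjusted p = 0.0556). Ifngr2, the signalling chain, was 23.2 ± 2.73 FPKM in WT, 29.3 ± 0.686 in CTCF KO (0.33, limma adjusted p = 0.0438) and 67.6 ± 2.72 in DKO (1.51, limma adjusted p = 1.8e-06). Ifnar1 rose in DKO from 29.3 ± 2.50 to 45.7 ± 1.44 FPKM (0.63, limma adjusted p = 0.000213) and was 28.6 ± 0.351 in CTCF KO. Ifnar2 was 117 ± 10.8, 101 ± 3.84 and 111 ± 1.98 FPKM in WT, CTCF KO and DKO and was not called. Of the kinases, Jak1 fell in DKO from 488 ± 30.5 to 399.5 ± 11.2 FPKM (-0.29, limma adjusted p = 0.00478). Jak2 was called higher in DKO (0.70, limma adjusted p = 0.0376), with 1 library at 11.4 FPKM and the others at 6.04 and 6.28. The calls of Jak1 and Jak2 were lost with the covariate described below among the measures of the samples. Socs3, which encodes a feedback inhibitor of cytokine receptors, rose in CTCF KO from 43.2 ± 2.11 to 59.9 ± 4.67 FPKM (0.46, limma adjusted p = 0.00364).

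**Figure D5:**
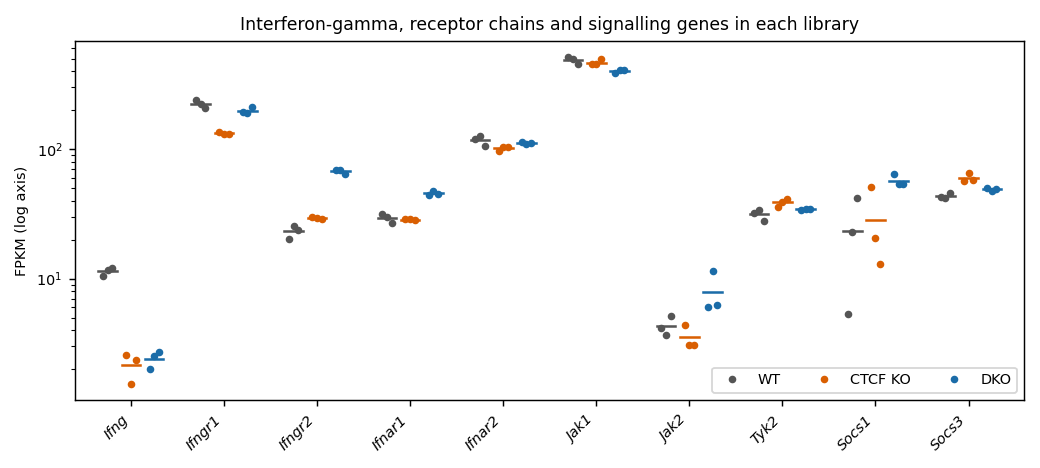
FPKM (log axis) of interferon gamma, receptor chains and signalling genes in each library (points) with group means (bars). Ifng is lower in both knockout groups, Ifngr1 is lowest in CTCF KO at 132, Ifngr2 is highest in DKO at 67.6, and the libraries of WT and CTCF KO are spread widely for Socs1.

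A longer list held 71 tested interferon-stimulated genes outside the 40. In CTCF KO 8 were higher than in WT (11.3%, against 5.78% of all tested genes) and 6 lower (8.45%, against 6.37%), so the balance of calls was not that of the 40 members, where lower calls outnumbered higher ones. In DKO 21 were higher (29.6%, against 18.5%) and 11 lower (15.5%, against 21.9%). Between the knockout groups 8 were higher in CTCF KO than in DKO (11.3%, against 21.8%) and 26 lower (36.6%, against 16.2%). The rises in DKO included Plac8 (325 ± 16.5 to 625 ± 46.0 FPKM, limma adjusted p = 4.7e-06), Slfn5 (2.69 ± 0.130 to 9.77 ± 0.334, limma adjusted p = 1.4e-05) and Apol9b (0.801 ± 0.101 to 5.21 ± 0.831, limma adjusted p = 1.2e-05). Slfn5 and Apol9b were also higher in CTCF KO, as was Xdh, the gene of xanthine dehydrogenase (15.1 ± 2.38 to 32.0 ± 2.55 FPKM, limma adjusted p = 0.000548). Psmb9, which encodes a subunit of the immunoproteasome, fell in DKO from 528 ± 18.6 to 296 ± 16.9 FPKM (limma adjusted p = 3.6e-06), and the aminopeptidase gene Lap3 and the nuclear body gene Sp100 were lower there too. In CTCF KO the falls with the smallest adjusted p were those of Epsti1 (268 ± 10.1 to 170.1 ± 7.06 FPKM, limma adjusted p = 0.000227), Ly6e (586 ± 25.2 to 393 ± 11.9, limma adjusted p = 0.000348) and Phf11b (119.8 ± 11.6 to 72.5 ± 10.3, limma adjusted p = 0.00216). Among 17 tested genes for the induction of interferon, 1 was called in CTCF KO (5.88%, against 12.2%) and 4 in DKO (23.5%, against 40.4%). Of these, Trex1, which encodes a DNA exonuclease that limits sensing of cellular DNA, was lower in CTCF KO (33.3 ± 5.89 against 48.5 ± 6.77 FPKM, limma adjusted p = 0.0308) and higher in DKO (77.5 ± 1.12, limma adjusted p = 0.00364). In DKO Irf2 was also higher, and Aim2 and Irf8 were lower, and no other gene of that list was called against WT in either group.

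Some measures of the samples moved with the groups. Summed neutrophil markers were 43.5 to 56.7 FPKM in WT, 15.1 to 18.8 in CTCF KO and 0.841 to 1.56 in DKO. All 6 tested of 8 were lower in both knockout groups, against 6.37% of tested genes in CTCF KO and 21.9% in DKO. At the DKO sums such genes could pass the filter only through the other groups, so lower calls there were largely fixed in advance. Summed plasmacytoid dendritic cell markers were 18.95 to 22.7, 17.6 to 22.8 and 15.2 to 17.2 FPKM. Of these, 1 of 3 tested was lower in DKO (33.3%, against 21.9% of tested genes). Conventional dendritic cell markers summed to 207 to 218, 209 to 219 and 256 to 294 FPKM, with 2 of 4 tested higher in DKO (50%, against 18.5%). Summed B cell markers were 52.4 to 55.2 FPKM in WT, 33.2 to 37.0 in CTCF KO and 99.1 to 117 in DKO, the order of the summed members, and nearly all of this was Cd79b, which limma called in all 3 comparisons. Summed NK cell markers were 70.3 to 88.5 FPKM in WT, 53.6 to 58.8 in CTCF KO and 59.4 to 71.9 in DKO. Within them Klre1, an NK receptor gene, fell from 9.35 ± 2.66 FPKM in WT to 0.678 ± 0.577 and 0.601 ± 0.261 (limma adjusted p = 0.000348 and 6.0e-05), and Eomes, a T-box factor that CD8 T cells also express, fell in DKO (limma adjusted p = 0.0128). Ncr1 and Klrb1c, which define NK cells, were near 1 FPKM in all groups and were not called. Erythroid markers summed to 67.4 to 73.4, 69.4 to 75.01 and 90.01 to 107 FPKM, with 1 of 5 tested higher in DKO (20%, against 18.5%). Platelet markers summed to 0.314 to 1.08, 0.567 to 3.62 and 3.39 to 5.24 FPKM. Macrophage and monocyte markers summed to 95.3 to 107, 96.4 to 105 and 94.0 to 111 FPKM. Of the 6 tested, C1qa and C1qc were higher (33.3%, against 18.5%) and Lyz2 was lower (16.7%, against 21.9%) in DKO. In CTCF KO 1 was lower (16.7%, against 6.37%). The part of such cells in the changes of the members was not tested. An index of the recovery of transcripts with a window of 100 bases at 80% GC or more lay between -0.567 and 0.156 in WT and CTCF KO and between 0.377 and 0.519 in DKO. None of the 40 members has such a window (0 of 40, the highest being 79%), against 2128 of 9712 tested genes with a value, whereas Jak2 has one of 86% and Ifngr2 and Jak1 of 80%. With this index as a covariate, chosen after seeing the data, 12 members were called higher and 1 lower in DKO than in WT, and the calls lost against WT were those of Ifi27l2a, Ifih1, Ifit3, Lgals3bp, Oas1a, Oas3 and Trim25 (adjusted p 0.0521 to 0.529). The log2 fold change moved little for Ifih1 (0.47 with the index, 0.49 without), Ifit3 (0.31 and 0.32), Oas3 (0.37 and 0.37) and Trim25 (-0.37 and -0.35). It was smaller with the index for Ifi27l2a (-0.25 and -0.34), Oas1a (-0.43 and -0.70) and Lgals3bp (-0.11 and -0.22). Between the knockout groups the index ended the calls of Ifit3, Lgals3bp and Xaf1 (adjusted p 0.0884 to 0.229). Outside the members, Jak2 in DKO against WT was 0.26 with the index (limma adjusted p = 0.603) and Jak1 -0.15 (limma adjusted p = 0.228). Ifngr2 was still called, at 1.34 (limma adjusted p = 4.7e-05). Other DKO calls lost with the index were those of Irf2, Lap3, Sp100 and Cd3e (limma adjusted p = 0.279, 0.0725, 0.117 and 0.0756). Among the markers, those of C1qa, C1qc, Lyz2, Xcr1 and Siglech were lost as well (limma adjusted p 0.0568 to 0.622). The calls of Trex1, Aim2, Irf8, Ifnar1, Plac8, Slfn5, Apol9b and Psmb9, among others, were kept. The targeted gene Ctcf was 0.01 with the index (limma adjusted p = 0.965). The index separates DKO from the other groups, so the covariate and the genotype cannot be told apart there.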

How the data were processed

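RNA was sequenced from 9 libraries of sorted CD8 T cells, 3 per group. The authors deposited FPKM per gene and library, and p-values and q-values of their own pairwise comparisons. TopHat2 2.1.0, Cuffdiff 2.2.1, FastQC and the builds mm9 and mm10 are named per the submitters' processing notes; library scaling, annotation and use of strand are not given in the sources used here. DKO library numbers are column numbers only, since the labels number them in different ways. The 10172 of 23946 genes that reached 1 FPKM in 3 or more libraries were fitted as log2(FPKM + 1), with a mean per group over all 9 libraries, in limma 3.58.1 (R 4.3.3, empirical Bayes with intensity trend), with Benjamini-Hochberg adjustment over all tested genes (two-sided, call under 0.05). The fit was tested on simulated data. The deposited values are FPKM and not counts, so no counting error is given, and the p-values reflect library-to-library spread alone, which may be technical. The members and lists were chosen with earlier results of these data known. Values in every library are given for up to 8 called members per comparison and direction with the smallest adjusted p, and for the most abundant member of a role in which none was called. Those of Isg15 were added after its values were seen. Receptor chains, Ifng and the targeted genes were always named, and of other lists up to 3 called genes per direction. Alternatives changed the pseudocount, filter, scaling, weights, groups fitted, library left out and replicate block. Motifs were searched as exact letters on both strands in RefSeq windows. Transcript GC came from the longest GENCODE transcript of each symbol.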

Additional observations from a re-analysis of the deposited data

How the results depend on the processing

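No member's called log2 fold change reversed its sign under the alternatives run. Of 47 calls over the 3 comparisons, 25 held under all of them and 22 were lost under 1 or more. Fitting only the CTCF KO and WT libraries gave 1 member higher and 5 lower. Over all genes that fit gave 436 higher and 545 lower, against 588 and 648 in the main fit. With the replicate number added to that fit as a block, 0 members were higher and 1 lower (95 and 202 of all genes). Deviations of libraries with the same number correlated at -0.62, 0.16 and -0.45. Those with different numbers correlated at -0.35 to 0.62, highest for CTCF KO library 1 with WT library 3. The GC index was -0.567, -0.200 and 0.156 in WT libraries 1 to 3. It was 0.046, -0.337 and -0.402 in CTCF KO libraries 1 to 3. Such spread enters the correlations, so they cannot decide whether the replicate numbers pair the samples. No block was fitted for DKO, whose columns carry no usable number. The authors' deposited q-values under 0.05 gave 1 higher and 3 lower in CTCF KO, and 2 lower in DKO. Array weights gave 12 lower in CTCF KO and 8 lower in DKO (1147 higher and 1132 lower over all genes in CTCF KO). The GC index as a covariate, added after seeing the data, gave 10 lower in CTCF KO and 1 lower in DKO, and over all genes 978 higher and 1329 lower in DKO against 1886 and 2227. The cause of these moves was not tested. Leaving out 1 library at a time gave 1 to 2 higher and 4 to 7 lower in CTCF KO, 11 to 14 higher and 3 to 6 lower in DKO, and 3 to 4 higher and 16 to 17 lower in CTCF KO against DKO. Scaling each library to the same median ended the calls of Ifih1, Ifit3, Igtp and Oasl2 in DKO (adjusted p 0.0523 to 0.167). It also ended those of Irgm1, Stat2 and Usp18 between the knockout groups (0.0560 to 0.130). Quantile normalization ended that of Oas2 in CTCF KO (adjusted p = 0.0705) and those of Ifih1, Lgals3bp and Oasl2 in DKO (0.1001 to 0.349). The depth of the libraries is unknown, which limits what can be said of members near 1 FPKM, such as Ifi44.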

Other observations

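Some interferon-related genes outside the list differed between libraries of the same group, and they are given as values only. Socs1, which encodes a feedback inhibitor of interferon signalling, measured 5.30, 22.9 and 42.2 FPKM in WT, 51.1, 20.5 and 12.9 in CTCF KO and 64.7, 53.6 and 53.4 in DKO, and its transcript has a window of 100 bases at 81% GC. Usp25, a deubiquitinase gene with a window at 87% GC, measured 10.2, 38.4 and 8.54 FPKM in DKO against 5.90 ± 0.318 in WT. Parp12, an antiviral ADP-ribosyltransferase gene with a window at 83% GC, measured 0.548, 0.531 and 3.76 FPKM in WT and 6.63, 8.57 and 7.15 in DKO. Its log2 fold change in DKO was 1.91 (limma adjusted p = 0.00720), and 0.48 once the GC index was added to the fit (limma adjusted p = 0.369). Trim14, which encodes an adaptor of antiviral signalling, measured 8.88, 10.1 and 21.2 FPKM in WT and 46.3, 56.3 and 47.1 in DKO, with a log2 fold change of 1.91 (limma adjusted p = 0.000457), and 1.05 with that index (limma adjusted p = 0.00685). These 4 genes were chosen after their values were seen. Interferon alpha and beta transcripts were at or near 0 in every library.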
